A study of Homo sapiens with 4 samples.

Results

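CUT&RUN peaks that lay at the promoters of long noncoding RNAs (lncRNAs) and away from every protein-coding promoter were collected from 2 peak lists, one of cells expressing wild-type BRG1 and one of cells expressing BRG1 without its HSA domain. A peak was taken when any of its bases lay within 1 kb of a transcript start of a gene of type lncRNA and when it was more than 5 kb from every protein-coding transcript start. This gave 691 of the 24212 peaks of the iBRG1 list and 735 of the 25371 peaks of the i∆HSA list, or 1426 of 49583 peaks in all. They are called lncRNA-only promoter peaks here.

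CUT&RUN maps where a protein sits on chromatin: an antibody brings a nuclease to the protein, and the DNA cut free there is sequenced. The 4 samples were SW-13 cells, a line from a human adrenocortical carcinoma in which neither BRG1 nor its paralog BRM is made, and all received doxycycline for 24 h. Both samples of the iBRG1 group carried an inducible wild-type BRG1 and both of the i∆HSA group an inducible BRG1 lacking the helicase/SANT-associated (HSA) domain, each with a V5 tag at its C terminus, and an antibody to V5 was used. The cells were individual stable clones, so a difference between constructs and a difference between clones cannot be told apart. The 2 replicates of a construct were represented by 1 peak list with no replicate column, so no replicate error could be given, and each test below describes the 2 lists. Read depth is unknown. The score of a peak is a whole number given by the authors whose scale is not stated.

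An lncRNA is a transcript with no long reading frame. Many are made at low levels and in few cell types, some act on chromatin, in nuclear bodies or as hosts from which microRNAs and small nucleolar RNAs (snoRNAs) are cut, and for most no function is known. BRG1 is the ATPase motor of SWI/SNF complexes, which slide and evict nucleosomes at promoters and enhancers. Its HSA domain is the platform on which actin-related subunits of the complex assemble. An lncRNA start is often also an enhancer, since active enhancers are transcribed, and an annotated start does not show that the RNA is made in SW-13 cells. Expression was not analysed here.

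The sequences of 4 shared peaks are shown first, because they were among the peaks that ranked highest in both lists: the leading pair by rank, the next, and a further pair of loci whose centre held the AP-1 sequence. Each line gives the 200 bases around the midpoint of the iBRG1 peak in the reference genome, and capitals mark the AP-1 sequence TGACTCA or TGAGTCA.
LINC02828, chr6:24743722-24743921, GRCh37, plus strand: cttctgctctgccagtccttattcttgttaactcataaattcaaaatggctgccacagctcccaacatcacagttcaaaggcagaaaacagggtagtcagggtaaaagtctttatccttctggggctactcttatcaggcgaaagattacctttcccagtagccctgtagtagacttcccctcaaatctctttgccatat
LINC01572, chr16:72325523-72325722, GRCh37, plus strand: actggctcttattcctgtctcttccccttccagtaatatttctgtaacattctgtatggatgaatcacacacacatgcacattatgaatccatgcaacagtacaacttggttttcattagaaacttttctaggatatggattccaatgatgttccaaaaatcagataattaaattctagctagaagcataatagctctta
LINC01119, chr2:47082395-47082594, GRCh37, plus strand: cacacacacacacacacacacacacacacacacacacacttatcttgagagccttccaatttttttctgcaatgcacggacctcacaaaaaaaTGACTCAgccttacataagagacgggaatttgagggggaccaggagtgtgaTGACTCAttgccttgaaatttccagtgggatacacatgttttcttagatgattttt
ENSG00000287986, chr9:35924245-35924444, GRCh37, plus strand: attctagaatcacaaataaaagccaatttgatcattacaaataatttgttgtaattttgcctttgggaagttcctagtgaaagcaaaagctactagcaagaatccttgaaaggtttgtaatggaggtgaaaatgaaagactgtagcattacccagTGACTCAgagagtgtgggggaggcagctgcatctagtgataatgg

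LINC01119 held 2 copies of the AP-1 sequence and ENSG00000287986 held 1, whereas the centres of LINC02828 and LINC01572 held none. Among the 8 best shared pairs by rank, the iBRG1 centres of those not printed here also held none. AP-1 is the dimer of FOS and JUN family factors that binds many enhancers. The GC content of the 4 centres ran from 34.5% at LINC01572 to 44% at LINC02828, around the median of 41.5% over whole iBRG1 peaks at lncRNA-only promoters. None of these loci was CpG-rich, a term used here for a start with at least 50% GC and an observed-to-expected CpG ratio of at least 0.6 in the 500 bp on each side.

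The share of peaks at lncRNA-only promoters was close in the 2 lists. It was 2.85% of iBRG1 peaks (95% Wilson interval 2.65 to 3.07) and 2.90% of i∆HSA peaks (2.70 to 3.11), an odds ratio of 1.02 (0.913 to 1.13, p = 0.788, two-sided Fisher's exact test over peaks). Intervals throughout cover counting error only, and peaks of one list are not independent replicates. For most of these peaks the nearest lncRNA start lay outside coding genes, 529 of the iBRG1 list (76.6%) and 572 of the i∆HSA list (77.8%). A further 119 and 118 were at starts antisense to a coding gene that contains them, and 43 and 45 were at starts on its strand.

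The nearest protein-coding start was a median of 50104 bp from iBRG1 peaks and 40762 bp from i∆HSA peaks, and the closest peaks admitted by the distance limit were 5235 and 5086 bp away. The nearest lncRNA start lay inside 390 iBRG1 peaks (56.4%) and 423 i∆HSA peaks (57.6%). From midpoint to start the median distance was 686 and 670 bp, and 149 and 154 midpoints were within 250 bp of a start. Midpoints fell on both sides of the start, 324 upstream and 365 downstream for iBRG1 and 361 and 372 for i∆HSA. The nearest start belonged to a gene known only by its Ensembl identifier for 56.7% and 58.1% of peaks, beside 70.7% of eligible lncRNA genes.

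Peak density was then measured around the canonical start of each lncRNA gene more than 10 kb from any coding start, with every peak of a list counted. Around these 12036 starts, midpoints within 500 bp had a density 1.90 times that of the flanks 3 to 5 kb away for iBRG1 (1.59 to 2.27) and 1.84 times for i∆HSA (1.56 to 2.18). Around 19540 protein-coding starts the ratios were 5.43 (4.95 to 5.95) and 5.97 (5.47 to 6.52), above those of lncRNA starts with no overlap of intervals. In absolute terms, lncRNA starts had 15.0 iBRG1 and 16.4 i∆HSA midpoints per 1000 starts per kb, against 54.5 and 64.3 at coding starts.

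The base composition of the start moved with this ratio. At the 959 CpG-rich lncRNA starts the centre held 55.3 iBRG1 midpoints per 1000 starts per kb, 9.22 times the flank (5.65 to 15.0), and 68.8 i∆HSA midpoints, 5.50 times the flank (3.79 to 7.98). CpG-rich coding starts had 74.4 and 86.5, with ratios of 6.95 (6.25 to 7.72) and 8.61 (7.75 to 9.56). The intervals of CpG-rich lncRNA and CpG-rich coding starts overlapped in both lists. At the 11077 CpG-poor lncRNA starts the centre was 1.43 times the flank for iBRG1 (1.17 to 1.75) and 1.38 times for i∆HSA (1.13 to 1.68). CpG-poor coding starts had 1.92 (1.54 to 2.41) and 1.85 (1.53 to 2.25), again with intervals that overlapped those of the lncRNA starts. Overlap of intervals does not show that the ratios of lncRNA and coding starts are equal, and no test compared them. The flank of the CpG-rich lncRNA starts rested on 23 iBRG1 and 48 i∆HSA midpoints.

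**Figure D1:**
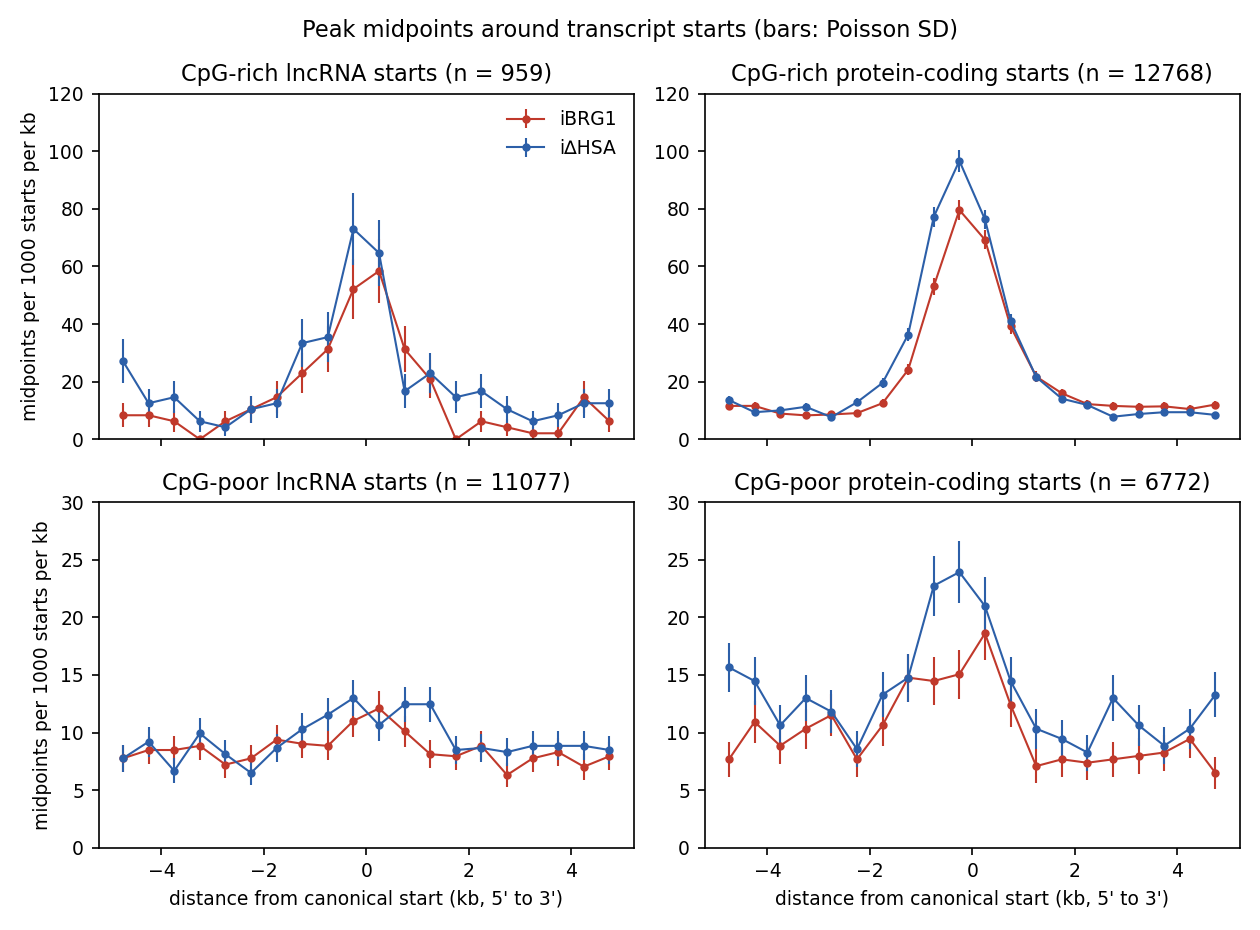
Peak midpoints per 1000 starts per kb (vertical axis, from 0, with a different range in the upper and lower panels) against distance from the canonical start in kb (horizontal axis, 5' to 3'), in 500 bp bins, for iBRG1 (red) and i∆HSA (blue); bars are the Poisson SD of the count. Averaged over the central bins within 500 bp, CpG-rich lncRNA starts have 55.3 and 68.8 midpoints per 1000 starts per kb, and CpG-poor lncRNA starts 11.6 and 11.8.

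Counted by gene, 726 of the 14321 lncRNA genes that could have held such a peak did so in the iBRG1 list and 777 in the i∆HSA list, which are 5.07% and 5.43% of these genes. Both lists had a peak at 230 genes, 1.61% of the same total. These 230 made up 31.7% of genes with an iBRG1 peak and 29.6% of those with an i∆HSA peak, and at 31 of them the peaks of the lists did not overlap. More than 1 peak was found at 25 and 27 genes.

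Genes with a CpG-rich canonical start had a peak in 10.9% of cases in the iBRG1 list (166 of 1517, 9.47 to 12.6) and 11.9% in the i∆HSA list (181, 10.4 to 13.7). Genes with a CpG-poor start had one in 4.37% (560 of 12804, 4.03 to 4.74) and 4.65% (596, 4.30 to 5.03). A peak in both lists was found at 78 CpG-rich genes (5.14%) and 152 CpG-poor genes (1.19%). The number of annotated starts moved with the share as well. Each start adds a window in which a peak is counted. Genes with 1 eligible start had a peak in 3.63% and 3.83% of cases, and genes with 5 or more in 12.5% and 13.6%. The part of the number of starts in the CpG difference was not tested.

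Among classes read from the gene symbol, hosts of snoRNAs differed most between the lists in share. Of 21 such genes, which release the small RNAs that guide the modification of ribosomal RNA, 5 had an iBRG1 peak (23.8%, 10.6 to 45.1) and 1 an i∆HSA peak (4.76%, 0.846 to 22.7), and the intervals overlapped. The iBRG1 genes were SNHG5 with 2 peaks, SNHG17, SNHG25, SNHG28 and SNHG30, all with scores of 4 or less, and SNHG28 alone had a peak in both lists. Of 70 microRNA host genes, 8 had a peak in each list (11.4%, 5.91 to 21.0) and 4 in both. The LINC genes, a name for intergenic lncRNAs, had peaks at 165 and 147 of 2171 genes (7.60% and 6.77%). Antisense genes had peaks at 65 and 81 of 1038 (6.26% and 7.80%), and genes without a symbol at 422 and 463 of 10125 (4.17% and 4.57%). In the iBRG1 list 5 and in the i∆HSA list 1 of the 122 intronic or overlapping genes had a peak. MicroRNA host genes with a peak had from 2 (MIR3142HG) to 196 (MIR99AHG) eligible starts, and genes of any class with 5 or more starts had a peak in 12.5% and 13.6% of cases. The part of the number of starts in the differences between name classes was not tested.

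**Figure D2:**
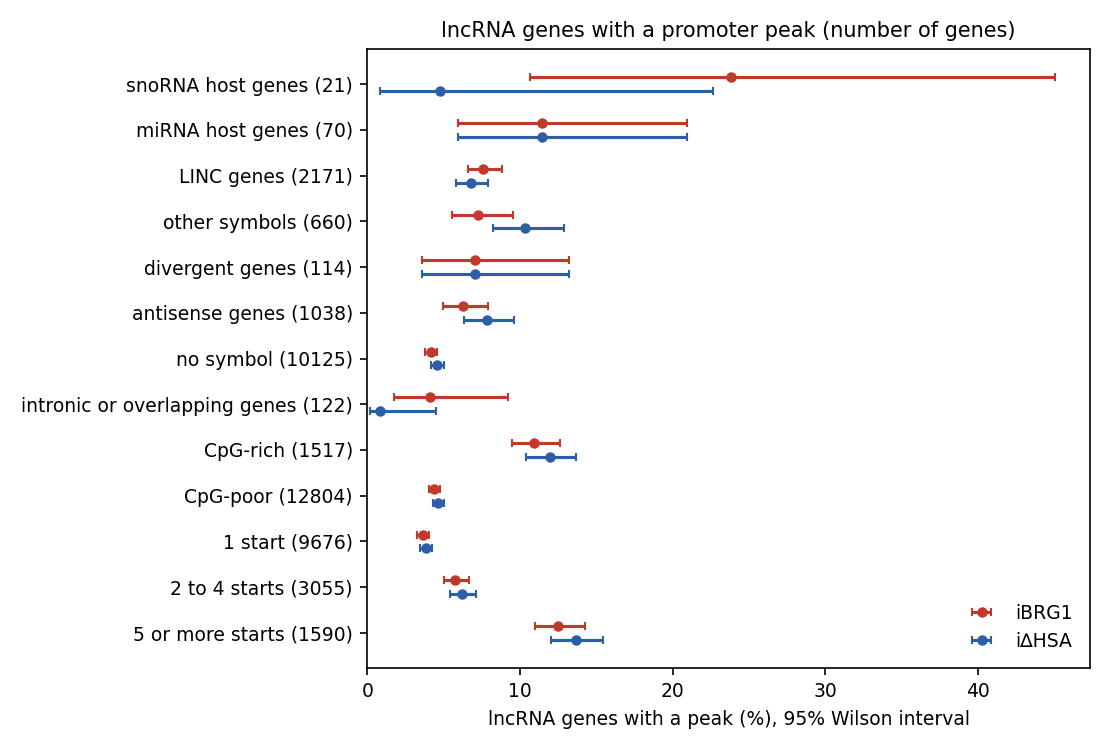
Percent of eligible lncRNA genes with a lncRNA-only promoter peak (horizontal axis, from 0) by name class, CpG class of the canonical start and number of eligible starts (vertical axis, number of genes in parentheses); points are iBRG1 (red) and i∆HSA (blue), bars 95% Wilson intervals. CpG-rich starts and genes with 5 or more starts lie between 10.9% and 13.6%, against 3.63% to 4.65% for CpG-poor starts and genes with 1 start.

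A list of 69 well-studied lncRNAs was followed by role. Of these, 58 had a start that could hold a lncRNA-only promoter peak, 13 had one in the iBRG1 list, 12 in the i∆HSA list and 7 in both, beside 5.07%, 5.43% and 1.61% of all eligible genes. The 58 genes had a median of 11 eligible starts (1 to 196), against a median of 1 over all eligible genes, and the part of this in their share was not tested. No peak of this kind was found in either list at NEAT1, the scaffold of paraspeckles, at MALAT1, an RNA of nuclear speckles, at the imprinted H19, MEG3 and KCNQ1OT1, at HOTAIR of the HOXC cluster, or at DLX6-AS1, SCHLAP1 and MYHAS. These last were 3 of the 4 listed genes that have been linked to SWI/SNF. For the fourth, UCA1, an i∆HSA peak was counted that lay away from its 5' end and nearer to a start of ENSG00000288618. Any annotated start counted, so a peak at a listed gene could lie at a start inside the gene, away from its 5' end. For CDKN2B-AS1 the start nearest the peak was chr9:22112070 and the 5' end of the gene chr9:21994138. The corresponding positions were chr13:50903770 and chr13:50656305 for DLEU1, and chr8:128866746 and chr8:128806772 for the overlapping PVT1 peaks. For MIAT the start nearest the peak was the 5' end, chr22:27042375.

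Of the 5 listed and eligible lncRNAs near the MYC locus, PVT1, PCAT1 and CASC19 had peaks, and CASC11 and CCAT2 had none in either list. At PVT1, the lncRNA gene downstream of MYC, an iBRG1 peak with a score of 9 (chr8:128866477-128867025) and an i∆HSA peak with a score of 8 (chr8:128866150-128867341) overlapped. Their midpoints were 5 bp downstream and 1 bp upstream of an annotated start inside the gene. A further iBRG1 peak at PVT1 with a score of 3 overlapped an i∆HSA peak that did not itself meet the rule. PCAT1, a prostate cancer lncRNA of the same region, had an iBRG1 peak with a score of 5 that overlapped an i∆HSA peak with a score of 2. CASC19 had 2 iBRG1 peaks and 1 i∆HSA peak, none overlapping.

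Of the 20 eligible tumour-associated genes in all, 7 had a peak in each list, 5 in both and 9 in either. CASC15, at the neuroblastoma susceptibility locus next to SOX4, had 2 peaks in each list, of which 1 pair overlapped with scores of 11 and 13. The starts nearest this pair, chr6:22113603 and chr6:22113560, lay inside the gene, whose 5' end was at chr6:21664415. LINC00511 and CRNDE each had 1 peak per list without overlap. The starts nearest the LINC00511 peaks, chr17:70515720 (iBRG1) and chr17:70417528 (i∆HSA), lay inside the gene, whose 5' end was at chr17:70636611. For the i∆HSA peak at CRNDE the nearest start was chr16:54908082 and the 5' end of the gene chr16:54963101. The iBRG1 peak counted for CRNDE was nearer to a start of ENSG00000286357. BANCR had an iBRG1 peak with a score of 0, the lowest score in the list. DLEU1, of the region deleted in chronic lymphocytic leukaemia, and UCA1 had i∆HSA peaks with a score of 3. The peak counted for UCA1 (chr19:15945942-15949011) was nearer to a start of ENSG00000288618 and also reached a start of LINC01764. It lay away from the 5' end of UCA1, chr19:15939016. It overlapped an iBRG1 peak, with a score of 6, that was not within 1 kb of a UCA1 start.

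Of microRNA hosts, MIR4435-2HG had a shared pair with scores of 12 for iBRG1 and 16 for i∆HSA, at percentiles 92.2 and 90.1 of their lists, and a second i∆HSA peak with a score of 2. MIR99AHG, from which miR-99a, let-7c and miR-125b-2 are cut, had 4 iBRG1 peaks with scores of 2, 23, 3 and 2 and 1 i∆HSA peak with a score of 7, none overlapping. MIR503HG and MIR3142HG, the host of miR-146a, had iBRG1 peaks with scores of 2 and 3, and MIR29B2CHG, the host of miR-29b-2 and miR-29c, had an i∆HSA peak with a score of 3. The peak counted for MIR503HG was nearer to a start of LINC00629, which lay inside the peak, whereas MIR503HG lay outside it. CDKN2B-AS1, also called ANRIL and transcribed antisense through the INK4 tumour suppressor locus, had an iBRG1 peak with a score of 14 and no i∆HSA peak. MEG8 of the imprinted DLK1-DIO3 region had an iBRG1 peak with a score of 5. The starts nearest the CDKN2B-AS1 and MEG8 peaks lay inside these genes, away from their 5' ends. FIRRE, which organises contacts between chromosomes in the nucleus, and MIAT had i∆HSA peaks with scores of 4 and 5. The start nearest the FIRRE peak, chrX:130918069, lay inside the gene, whose 5' end was at chrX:130964890. Starts inside the gene were also nearest to the peaks at MIR4435-2HG and MIR29B2CHG. The same held for the MIR99AHG peaks with scores of 23 and 7.

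The highest-scoring lncRNA-only promoter peaks were, in the iBRG1 list, at ENSG00000237356 with a score of 67, LINC01392 with 54, LINC02828 with 52, ENSG00000225563 with 44 and ENSG00000285646 with 40. All 5 overlapped an i∆HSA peak, whose scores were 8, 19, 57, 35 and 6. In the i∆HSA list they were at ENSG00000290785 with a score of 166, CFLAR-AS1 with 86, LINC01275 with 85, ENSG00000225393 with 69 and ENSG00000261392 with 67. The first 3 of these overlapped iBRG1 peaks with scores of 1, 24 and 12, and the last 2 overlapped none. The score of 166 thus faced one of the lowest scores of the other list. The peak at ENSG00000225393 on chromosome X had only 12.4% GC.

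Peaks present in one list alone had lower scores, with medians of 3 for iBRG1 and 4 for i∆HSA against 5 and 10 for shared peaks. The highest among iBRG1 peaks were at ENSG00000249061 (score 34), ENSG00000288885 (31), LRRTM4-AS1 (28), DIRC1 (26) and LINC01010 (26). ENSG00000288885 starts inside SLC19A1, the reduced folate carrier gene, on the opposite strand, and its peak was 69.4% GC with a CpG-rich start. Besides the 2 peaks already named, the highest i∆HSA-only peaks were at ENSG00000258028 (47), at ENSG00000261478 (47) and at ENSG00000257496 (37). The peak at ENSG00000261478 had 11.2% GC. Below 25% GC there were 11 of 735 i∆HSA peaks and 1 of 691 iBRG1 peaks at lncRNA-only promoters, beside 4.64% and 0.888% of all peaks of these lists.

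The best shared pairs by rank in both lists had scores of 52 and 57 at LINC02828, 28 and 67 at LINC01572, 31 and 59 at ENSG00000228027, 24 and 86 at CFLAR-AS1, 27 and 66 at LINC01119, 38 and 41 at ENSG00000287986, 44 and 35 at ENSG00000225563, and 26 and 37 at LINC01920, with the iBRG1 score first. The LINC02828 peak (chr6:24743245-24744397) was 22192 bp from the start of C6orf62. CFLAR-AS1 is antisense to CFLAR, which encodes the apoptosis inhibitor c-FLIP, and its iBRG1 peak spanned chr2:202013695-202016649, 15988 bp from a CFLAR start. ENSG00000228027 lies antisense in CELF2, an RNA-binding protein gene, 5649 bp from one of its starts and so near the distance limit.

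The genes with most peaks in either list had 3 to 196 eligible starts, against a median of 1 over all eligible genes. The part of this in their number of peaks was not tested. Among them, CASC15 had 2 peaks in each list. LINC01091 had 4 iBRG1 peaks, with scores of 2 or 3, and no i∆HSA peak. LINC01036 and ENSG00000249328 had 3 iBRG1 peaks each and no i∆HSA peak. Their scores were 1, 9 and 1 at LINC01036 and 1, 2 and 1 at ENSG00000249328. In the i∆HSA list, ENSG00000259692 had 3 peaks, the highest with a score of 26, and LINC01002 had 3, where the iBRG1 list had no lncRNA-only promoter peak at either gene. One of the LINC01002 peaks, with a score of 6, overlapped an iBRG1 peak with a score of 4 that did not itself meet the rule. DRAIC, an lncRNA lowered in androgen-independent prostate cancer, had 3 i∆HSA peaks and 1 iBRG1 peak, which formed a shared pair (chr15:69848957-69850398 in the iBRG1 list) with scores of 7 for iBRG1 and 62 for i∆HSA. Without replicate lists, whether any single gene differs between constructs could not be tested.

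Over all shared peaks the scores of the lists were loosely related. The 182 iBRG1 peaks and their overlapping i∆HSA peaks had a Spearman rank correlation of 0.458 across peaks, a description without a test because the lists share annotation and base composition. The i∆HSA score was the higher in 133 of 182 pairs, but the scores of that list were higher in general, with a median of 5 against 3 over lncRNA-only promoter peaks. By percentile within its own list, the i∆HSA peak was the higher in 104 of 182. The common stretch had a median of 1396 bp, or 78.5% of the iBRG1 peak, and in 170 pairs the partner was itself a lncRNA-only promoter peak.

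**Figure D3:**
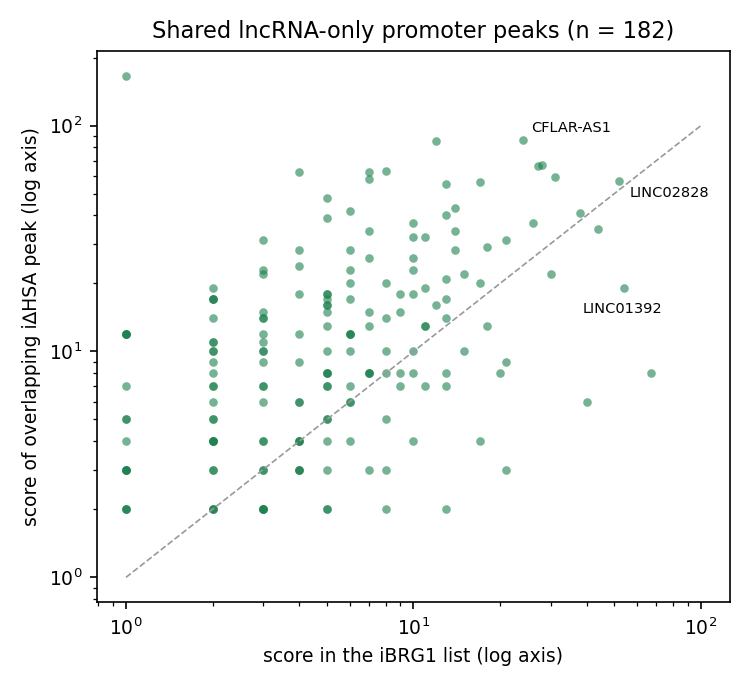
Score of each of the 182 shared lncRNA-only promoter peaks in the iBRG1 list (horizontal, log axis) against the score of the overlapping i∆HSA peak (vertical, log axis); the dashed line marks equal scores. In 133 pairs the i∆HSA score is the higher, and ENSG00000290785, at a score of 1 and 166, is the point at the upper left.

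Of the lncRNA-only promoter peaks, 182 of 691 in the iBRG1 list (26.3%, 23.2 to 29.7) and 189 of 735 in the i∆HSA list (25.7%, 22.7 to 29.0) overlapped a peak of the other list, beside 20.5% and 19.6% of all peaks. The share was higher than that of distal peaks, which lay more than 5 kb from every annotated start: 17.7% in both lists, with odds ratios of 1.67 (1.39 to 1.99, exact adjusted p = 2.38e-07) for iBRG1 and 1.60 (1.35 to 1.91, exact adjusted p = 5.26e-07) for i∆HSA, by two-sided Fisher's exact tests adjusted over 6 tests. It was lower than that of coding promoter peaks in the iBRG1 list, 35.0% with an odds ratio of 0.663 (0.547 to 0.802, exact adjusted p = 2.67e-05). In the i∆HSA list coding promoter peaks had 29.5%, and the odds ratio of 0.829 (0.687 to 0.998) did not pass after adjustment (exact adjusted p = 0.0650). These calls against coding promoters depended on settings: with a reciprocal overlap of 50% the iBRG1 odds ratio was 0.801 (exact adjusted p = 0.100), and the i∆HSA call passed by peak midpoint (0.775, exact adjusted p = 0.0331) and with basic transcripts (0.779, exact adjusted p = 0.0149).

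Score and width moved with these shares. A score of at least 5 was held by 227 iBRG1 peaks at lncRNA-only promoters (32.9%, against 27.2% of all peaks) and 369 i∆HSA peaks (50.2%, against 41.1%). Their median width was 1702 and 1729 bp, between distal peaks (1209 and 1193 bp) and coding promoter peaks (1954 and 2126.5 bp). The classes themselves depend on width. Any base near a start made a promoter peak, whereas a distal peak had no base within 5 kb of a start, so wide peaks entered the promoter classes more easily. The part of this in the widths and in the shared part was not tested. Among peaks with a score of at least 5, the odds ratio against coding promoters was 1.07 (exact adjusted p = 0.706) for iBRG1 and 1.36 (exact adjusted p = 0.0620) for i∆HSA, so its direction turned, and against distal peaks it was 1.35 (exact adjusted p = 0.0620) and 1.23 (exact adjusted p = 0.141). Among peaks 1000 to 2500 bp wide, a limit chosen after the values were seen, the odds ratios against distal peaks were 1.31 (exact adjusted p = 0.0871) and 1.33 (exact adjusted p = 0.0711).

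By score class, the shared part of iBRG1 peaks at lncRNA-only promoters was 16.6% for scores under 5, 38.6% for 5 to 9, 60.0% for 10 to 19 and 59.3% for 20 or more. For i∆HSA it was 11.7%, 23.1%, 46.8% and 77.8%. Shared peaks were also wider than list-only peaks, with medians of 2098 against 1537 bp for iBRG1 and 2204 against 1488.5 bp for i∆HSA. Where the lncRNA start lay inside the peak, 32.6% and 30.0% of peaks were shared, and where it lay outside, 18.3% and 19.9%. Peaks that held the start were also wider, with medians of 2115.5 against 1207 bp for iBRG1 and 2237 against 1135.5 bp for i∆HSA. The part of width in this difference was not tested. CpG-rich starts had 31 of 89 iBRG1 peaks shared (34.8%) and CpG-poor starts 151 of 602 (25.1%), an odds ratio of 1.60 (0.958 to 2.62, exact adjusted p = 0.0650). For i∆HSA the odds ratio was 1.26 (0.775 to 2.01, exact adjusted p = 0.340). With scores of at least 5 these were 3.52 (exact adjusted p = 0.0285) and 0.811 (exact adjusted p = 0.658).

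**Figure D4:**
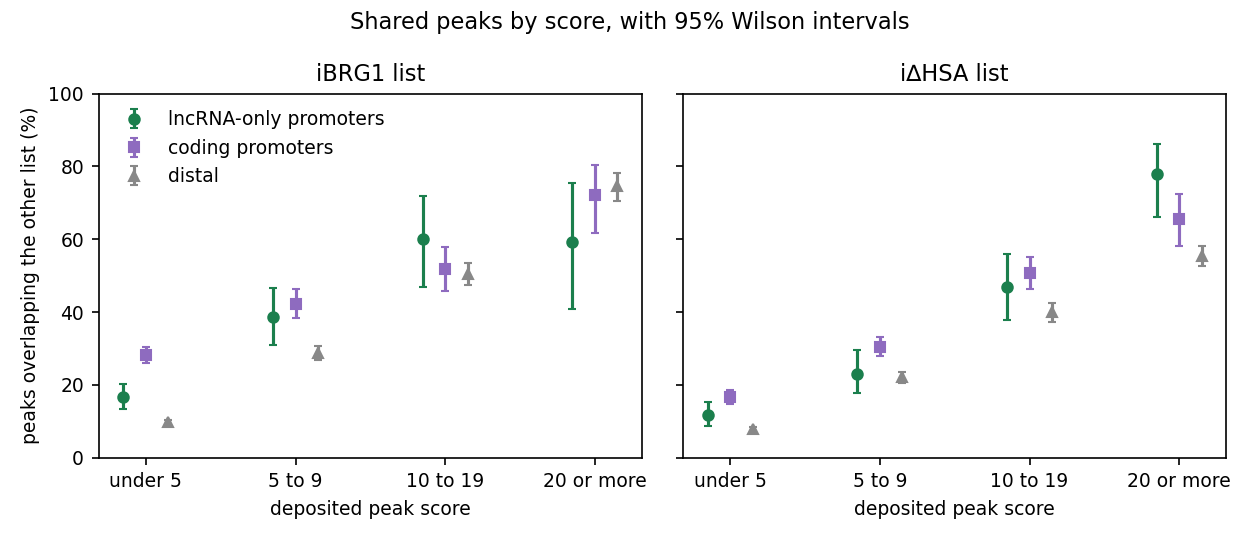
Percent of peaks that overlap a peak of the other list (vertical axis, 0 to 100) by deposited score (horizontal axis) for lncRNA-only promoter peaks (green), coding promoter peaks (purple) and distal peaks (grey), with 95% Wilson intervals; iBRG1 on the left, i∆HSA on the right. Under a score of 5 the lncRNA-only promoter peaks, at 16.6% and 11.7%, lie between distal peaks (9.83% and 7.80%) and coding promoter peaks (28.2% and 16.7%).

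The sequence of the peak centres was searched for exact patterns on both strands over the 100 bp to the left and right of the midpoint. The AP-1 sequence (TGACTCA or TGAGTCA) was found at 66 iBRG1 centres (9.55%, 7.58 to 12.0) and 44 i∆HSA centres (5.99%, 4.49 to 7.94) of lncRNA-only promoters, beside 8.89% and 6.18% of all peaks. It was more frequent than at coding promoters, where 113 of 2675 (4.22%) and 108 of 3178 (3.40%) centres held it, with odds ratios of 2.39 (1.72 to 3.32, exact adjusted p = 1.06e-06) and 1.81 (1.23 to 2.62, exact adjusted p = 0.00614) by Fisher's exact test adjusted over 28 tests. Against distal peaks, with 9.26% and 6.49%, the odds ratios were 1.03 (0.785 to 1.34, exact adjusted p = 0.960) and 0.918 (0.656 to 1.26, exact adjusted p = 0.854). Of shared peaks 11.0% (iBRG1) and 11.6% (i∆HSA) held AP-1, and of list-only peaks 9.04% and 4.03%.

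The GC-rich box of SP and KLF factors (CCCGCCC) showed another order. It was at 3.91% of iBRG1 and 5.17% of i∆HSA centres at lncRNA-only promoters, below coding promoters (14.0% and 14.8%, odds ratios 0.249, exact adjusted p = 1.29e-14, and 0.315, exact adjusted p = 3.07e-13) and above distal peaks (0.665% and 0.632%, odds ratios 6.07, exact adjusted p = 4.63e-11, and 8.58, exact adjusted p = 1.20e-18). The ETS sequence (CCGGAAG) was at 6 iBRG1 centres (0.868%) and 13 i∆HSA centres (1.77%). It was less frequent than at coding promoters (odds ratios 0.249, exact adjusted p = 0.000427, and 0.422, exact adjusted p = 0.00521), but with scores of at least 5 neither call held (0.465, exact adjusted p = 0.499, and 0.454, exact adjusted p = 0.100). Against distal peaks it was more frequent in the i∆HSA list (5.56, exact adjusted p = 1.89e-05). In the iBRG1 list the odds ratio of 2.06 did not pass (exact adjusted p = 0.257), whereas it passed with scores of at least 5 (6.71, exact adjusted p = 0.0230) and with 250 bp on each side (4.07, exact adjusted p = 1.75e-07). The TEAD sequence (ACATTCC or GCATTCC) was at 6.80% and 5.44% of centres and passed in no comparison. The CRE, CTCF and NRF1 patterns were each found at 2 or fewer centres per list. Base composition differed between the classes as well. Median GC over whole peaks, iBRG1 first, was 41.5% and 42.8% at lncRNA-only promoters. It was 50.4% and 50.3% at coding promoters and 37.5% and 36.3% at distal sites. The part of base composition in the pattern shares was not tested. A match is a run of letters and does not show binding.

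**Figure D5:**
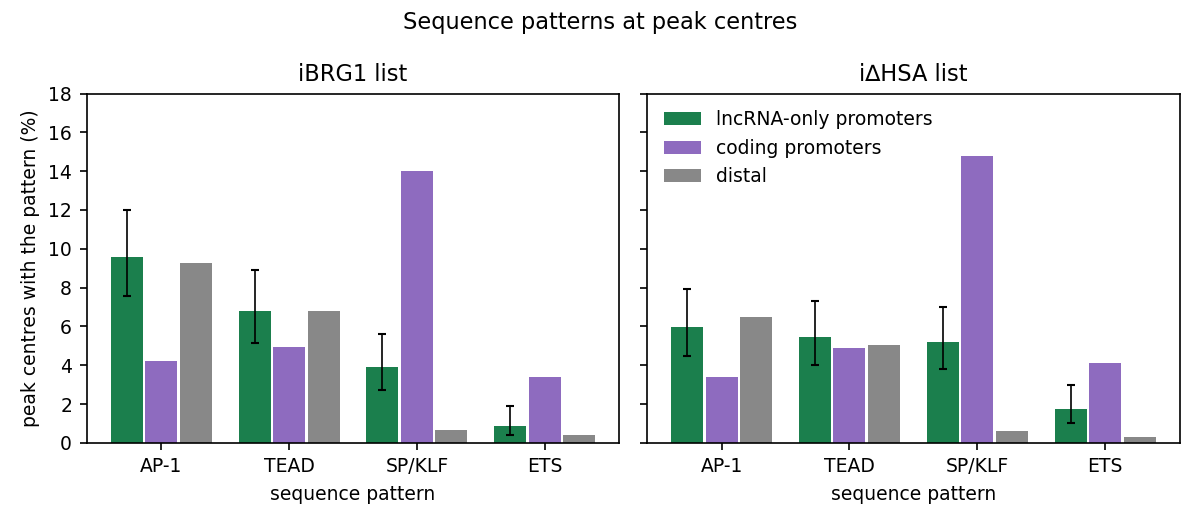
Percent of peak centres (200 bp, vertical axis from 0) holding the AP-1, TEAD, SP/KLF or ETS sequence (horizontal axis) at lncRNA-only promoters (green, with 95% Wilson intervals), coding promoters (purple) and distal sites (grey); iBRG1 on the left, i∆HSA on the right. At lncRNA-only promoters AP-1 is near the distal level (9.55% against 9.26%, 5.99% against 6.49%), and SP/KLF lies between coding promoters and distal sites.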

How the data were processed

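The authors trimmed reads with cutadapt, aligned them with Bowtie2 to hg19, removed duplicates with Picard, called peaks with MACS2 2.2, removed peaks of negative controls and applied a minimum score; SAMtools is also named. The deposited unit is the peak score, a whole number that starts at 0 (iBRG1) and 1 (i∆HSA), so the minimum of the methods is not visible in it. Both lists, with 24212 and 25371 peaks, were larger than the peak sets the authors describe. A score of at least 5 was held by 6575 iBRG1 and 10440 i∆HSA peaks. Pooling of replicates is not stated. Here, peaks were joined to GENCODE release 44 mapped to GRCh37 with numpy 2.4.6, pandas 2.3.3 and pysam 0.24.0 in Python 3.11.15. Coding starts were those of transcripts of type protein_coding. A gene was eligible with a start more than 4 kb from these. Shared means 1 bp in common. Fisher's exact tests and Wilson intervals came from scipy 1.17.1, with Benjamini-Hochberg adjustment and a threshold of 0.05. Scripts were tested on simulated data. Named loci were the 5 highest scores, the 5 highest list-only scores and the 5 genes with most peaks per list, the 8 best shared pairs by mean rank, and listed lncRNAs. Members and lists were chosen with earlier results of these data known, and the density around starts and host gene names were added after values were seen. In the i∆HSA list 1 peak lay in masked sequence and was counted as holding no pattern.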

Additional observations from a re-analysis of the deposited data

How the results depend on the processing

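Alternatives changed 1 choice at a time. With a score of at least 5, peaks numbered 227 and 369, genes 247 and 403, and genes in both lists 109, since fewer peaks were used. Shared-peak odds ratios then were 1.07 and 1.36 against coding promoters, 1.35 and 1.23 against distal peaks, and 3.52 and 0.811 for CpG-rich against CpG-poor starts (iBRG1 first). The cause of these turns was not tested. AP-1 against distal iBRG1 peaks then was 0.928, and 2 patterns, SP/KLF and ETS, passed against distal iBRG1 peaks, as with a 250 bp window (2), where AP-1 against distal i∆HSA peaks was 1.06. Counting every transcript of protein-coding genes as coding starts gave a list share odds ratio of 0.986 (exact p = 0.824). By peak midpoint, genes in both lists numbered 139, and the i∆HSA odds ratio against coding promoters was 0.775 (exact adjusted p = 0.0331). It was 0.779 (exact adjusted p = 0.0149) with basic transcripts. A reciprocal overlap of 50% gave 0.801 (exact adjusted p = 0.100) for iBRG1 against coding promoters. Peaks 1000 to 2500 bp wide, chosen after seeing the data, gave 1.31 and 1.33 against distal peaks. The cause was not tested for any of these. Of 49 odds ratios of the main comparisons under alternatives, 37 kept direction and side of the threshold, and of 47 counts of peaks, genes or patterns, 39 stayed within 1.5 times. No paired analysis was possible because the replicates of a construct share 1 peak list and have no values of their own, so no replicate could be left out either. Read depth is unknown.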

Other observations

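By chromosome, the lncRNA-only promoter peaks of the lists were unequal on chromosome 14, with 16 iBRG1 and 35 i∆HSA peaks, on chromosome 19, with 16 and 33, and on chromosome 16, with 29 and 44. The order was the other way on chromosome 2, with 74 and 56, and on chromosome 8, with 53 and 37. All peaks of the lists numbered 824 and 975 on chromosome 14, 551 and 1048 on chromosome 19, 709 and 859 on chromosome 16, 2449 and 2026 on chromosome 2, and 1305 and 1240 on chromosome 8. No test was run on these counts, which were looked up after the values were seen.

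A score of 0 or 1 was held by 145 iBRG1 (21.0%) and 21 i∆HSA (2.86%) peaks at lncRNA-only promoters, beside 28.6% and 3.28% of all peaks. A score of 20 or more was held by 27 (3.91%) and 63 (8.57%), beside 3.21% and 7.88% of all peaks, so the lists differed in the same direction over all peaks.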
